A study of Mus musculus with 10 samples.

Results

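A set of 10 genes known from blood stem and progenitor cells was followed across 10 arrays: Cd34, Prom1, Procr, Ly6a, Cd48, Cd93, Egfl7, Hlf, Hhex and Myct1. They were chosen by name, and every probe set that the array's annotation gives to 1 of these symbols was taken. This found 20 of 45101 probe sets, for 9 of the 10 genes. No probe set was listed for Ly6a, the gene of the surface antigen Sca-1, which is not analysed here. The probe sets are 1 each for Cd34, Prom1, Procr, Cd48 and Hhex, 2 for Hlf, 4 each for Egfl7 and Myct1 and 5 for Cd93.

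The arrays measured cultured mouse cell lines that the labels call leukemia stem cells, all cultured in Opti-MEM to which serum, antibiotics, mercaptoethanol and stem cell factor were added, in 4 groups of 1 array per sample. RH-RAS lines carry mutant DNMT3A (R882H), an enzyme that methylates DNA, and mutant NRAS (G12D), a signalling GTPase, and were established ex vivo. Lines 1 and 3 were profiled after SGC0946, an inhibitor of the histone methyltransferase Dot1l, was given at 1 µM for 4 days. The second group holds 3 lines with NUP98-JARID1A, which joins a nuclear pore protein to a chromatin protein, and the third is 1 line with the fusion MLL-AF9. The last group is 4 untreated RH-RAS lines, which the labels call independently derived, including the untreated counterparts of the inhibitor-treated lines 1 and 3. They do not say this of the NUP98-JARID1A lines, so p-values there measure only the spread between these samples. MLL-AF9 is a single line with no replicate, and a vehicle for the untreated cultures is not named in the labels.

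Blood stem cells are recognised by combinations of surface proteins rather than by any single one. In the mouse, CD48 is absent from the most primitive stem cells and appears on their progeny, while EPCR, the product of Procr, marks stem cells. CD34 and prominin-1 mark progenitor cells of blood, and CD93 is carried by early progenitors, monocytes and endothelial cells. Hlf and Hhex encode transcription factors of stem and early progenitor cells, and Egfl7 encodes a secreted protein of vessels and blood progenitors.

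Promoters are shown for the 4 genes with a promoter entry that passed a test below with a change of over 1 on the log2 scale. RefSeq promoter entries of build GRCm38.p6 were found for 8 of the 10 genes, and each line gives the 250 bases before a transcription start, 5′ to 3′ on the gene's strand. These are chr1:194938571-194938820 (plus strand) for Cd34, chr5:44101737-44101986 (minus strand) for the more upstream of the 2 Prom1 starts, chr1:171681742-171681991 (plus strand) for Cd48 and chr11:90390918-90391167 (minus strand) for Hlf. Capitals mark matches to 5 short motifs searched on both strands, and none of the matches overlap.
Cd34: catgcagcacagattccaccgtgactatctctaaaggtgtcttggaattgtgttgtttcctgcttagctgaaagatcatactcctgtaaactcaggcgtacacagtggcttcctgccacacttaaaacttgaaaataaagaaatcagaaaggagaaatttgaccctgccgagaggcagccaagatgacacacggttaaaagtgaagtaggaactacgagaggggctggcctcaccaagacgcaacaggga
Prom1: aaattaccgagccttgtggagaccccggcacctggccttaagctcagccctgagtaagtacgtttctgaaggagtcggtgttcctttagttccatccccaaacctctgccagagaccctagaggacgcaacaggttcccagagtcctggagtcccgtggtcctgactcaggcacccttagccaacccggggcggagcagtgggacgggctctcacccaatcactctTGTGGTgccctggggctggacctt
Cd48: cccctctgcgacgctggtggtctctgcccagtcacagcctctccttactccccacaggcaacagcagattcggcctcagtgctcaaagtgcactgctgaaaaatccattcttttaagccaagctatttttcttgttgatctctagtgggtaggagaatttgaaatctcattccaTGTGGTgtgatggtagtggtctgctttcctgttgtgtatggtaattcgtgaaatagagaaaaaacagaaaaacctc
Hlf: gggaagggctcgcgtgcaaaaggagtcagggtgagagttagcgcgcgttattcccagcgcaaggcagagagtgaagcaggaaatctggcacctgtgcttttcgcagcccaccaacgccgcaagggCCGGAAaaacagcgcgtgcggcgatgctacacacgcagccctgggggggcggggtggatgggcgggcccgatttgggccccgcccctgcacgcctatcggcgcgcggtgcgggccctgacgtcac
The HOX-PBX motif searched was TGATNNAT and the MEIS motif was TGACAG. The motif of the GATA family of zinc finger factors was GATAAG, that of ETS factors was CCGGAA and that of RUNX factors was TGTGGT. The Cd34 window held none of them. The windows of Prom1 and Cd48 each held 1 RUNX-type match, at bases −24 to −19 and −76 to −71 before the start, and the Hlf window held 1 ETS-type match at −125 to −120. Among 32851 promoter entries of the same length, 14.0% held the RUNX-type motif and 12.0% the ETS-type motif. The HOX-PBX-type motif was in 7.7%, the MEIS-type in 15.9% and the GATA-type in 6.5%. The Hlf window was 67.2% G and C with 26 CpG dinucleotides, against a median of 52.4% and 6 over all entries. Cd34 (46.4% and 6) and Cd48 (46.0% and 4) had the fewer G and C, and the upstream Prom1 window had 59.2% and 9.

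Values are log2 intensities made by RMA. The median of all probe sets lay between 5.72 and 5.82 on the 10 arrays, and a probe set below it is called dim here. In the tests the probe set of highest mean stood for its gene, provided that 2 or more arrays had it above their median. This left 11992 of 18193 genes, and 8 of the 9 genes, without Procr. Prom1 and Hlf were dim on all 6 RH-RAS arrays. Prom1 passed through NUP98-JARID1A lines 1 and 3 and MLL-AF9, and Hlf through the 3 NUP98-JARID1A lines, so a difference in those lines is built into their being tested. Untreated line 4 stood apart from lines 1 to 3, with 595 to 784 probe sets more than 1 apart, against 40 to 111 among lines 1 to 3. The treated arrays of lines 1 and 3 had only 10 probe sets more than 1 apart. The NUP98-JARID1A lines were the least alike, with 1034 to 1672.

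**Figure D1:**
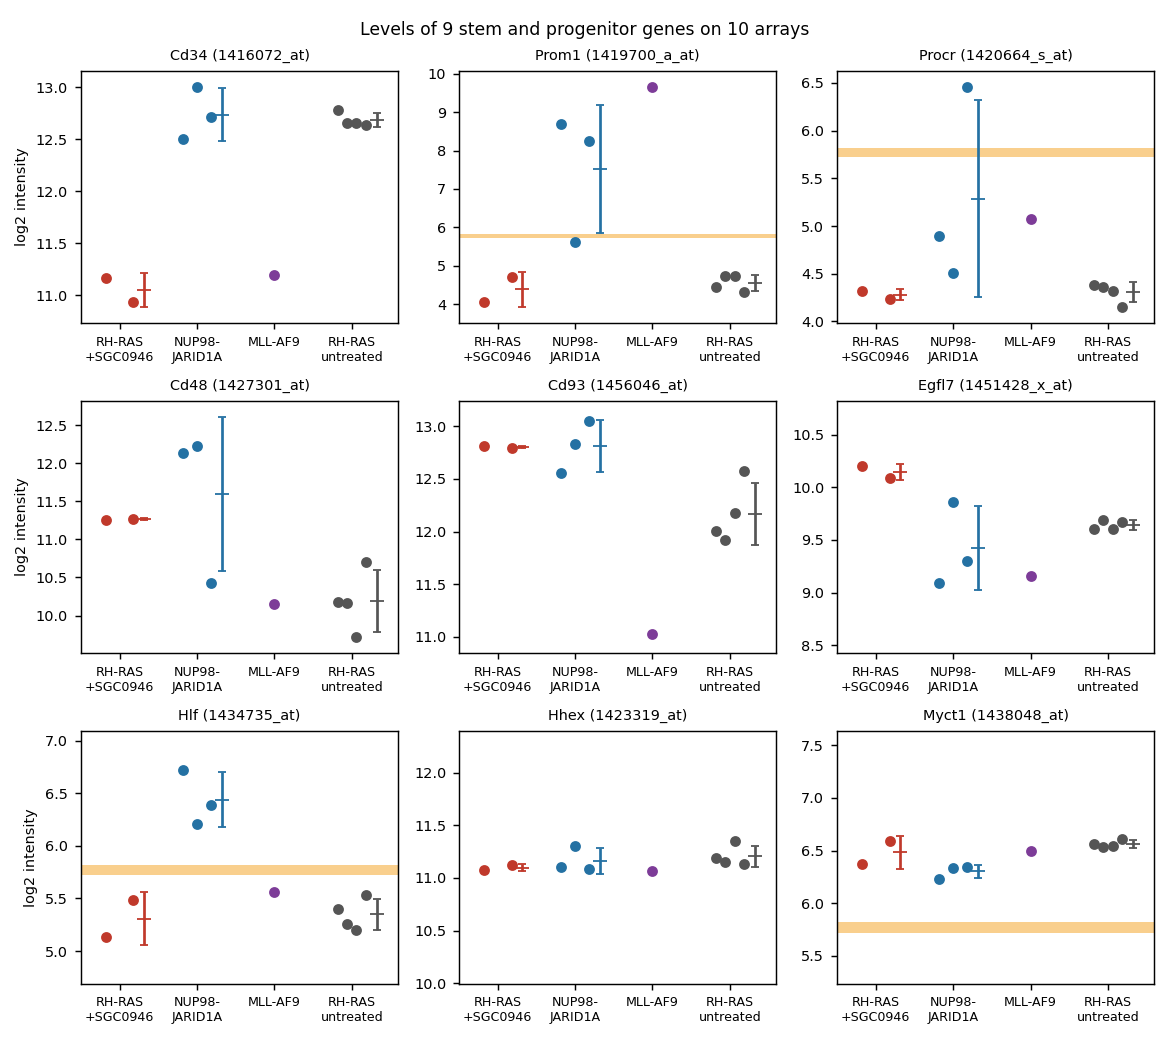
Log2 intensity (y axis, own range in each panel) of the brightest probe set of 9 genes on the 10 arrays, by group on the x axis; points are arrays, bars are the group mean and SD, and the orange band is the range of the array medians. Cd34 was lower on both SGC0946 arrays and the MLL-AF9 array than on all others, and Prom1 was above the band only in MLL-AF9 and in NUP98-JARID1A lines 1 and 3.

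The first comparison asks what the Dot1l inhibitor did to these genes in RH-RAS lines 1 and 3. Cd34, which encodes a sialomucin of progenitor cells, fell. Its probe set stood at 11.17 and 10.94 on the arrays of treated lines 1 and 3, against 12.78, 12.66, 12.66 and 12.63 on those of untreated lines 1 to 4. Both treated arrays lay below every untreated one. The log2 change was −1.67 ± 0.17 (SE, n = 2 arrays per group), a 3.18-fold decrease (limma adjusted p = 0.00353). Lines 1 and 3 changed by −1.62 and −1.72. Without the treated line 3 array the adjusted p was 0.0537, with a change of −1.55. In cultured lines, fewer cells with a transcript and less of it per cell cannot be told apart.

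The other genes did not pass the test under SGC0946, although 3 of them were higher on both treated arrays than on every untreated one. Cd48, which encodes a surface ligand of the receptor CD244, stood at 11.26 and 11.27 in treated lines 1 and 3, against 10.18, 10.16, 9.72 and 10.70 in untreated lines 1 to 4. The treated values were nearly equal, and line 4 was the highest of the untreated. The change was 1.32 ± 0.56 (adjusted p = 0.184), with a 95% interval from 0.01 to 2.63. The SE holds the spread among the NUP98-JARID1A arrays (SD 1.01) as well as that of the RH-RAS lines. With only the 4 arrays of lines 1 and 3 in the fit, the adjusted p was 0.00120.

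Cd93, a C-type lectin-like receptor, stood at 12.81 and 12.80 on treated arrays, against 12.00, 11.92, 12.17 and 12.57 in untreated lines 1 to 4. Treated arrays lay above all untreated ones, and line 4 lay between the rest and the treated arrays. The change of this brightest of 5 probe sets was 0.72 ± 0.23 (adjusted p = 0.0941). The adjusted p was 0.0433 without the untreated line 4 array, which enters only the spread, and 0.00199 with only the 4 arrays compared. The other 4 probe sets were at 0.90 ± 0.27, 1.01 ± 0.26, 1.34 ± 0.39 and 0.63 ± 0.30, each positive in both lines, and none passed among 21679 probe sets tested, of which 9.70% did (adjusted p from 0.0510 to 0.253). Both treated arrays lay above all 4 untreated ones for 4 of the 5 probe sets. The dimmest, 1441908_x_at (0.63), was above the array median only on the treated arrays and in untreated line 4. It passed the filter through the treated arrays, so its sign is partly built in.

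Egfl7 stood at 10.20 and 10.09 on treated arrays, against 9.60, 9.68, 9.60 and 9.67 in untreated lines 1 to 4. The treated arrays were higher and the untreated ones nearly equal, line 4 included. The change was 0.54 ± 0.22 (adjusted p = 0.171), or adjusted p = 0.00452 with only the 4 arrays compared. Of its 4 probe sets the brighter 3 were higher on both treated arrays than on all untreated ones, at 0.54 ± 0.22, 0.48 ± 0.18 and 0.46 ± 0.14. The dim 1421335_a_at was at 0.01 ± 0.16.

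**Figure D2:**
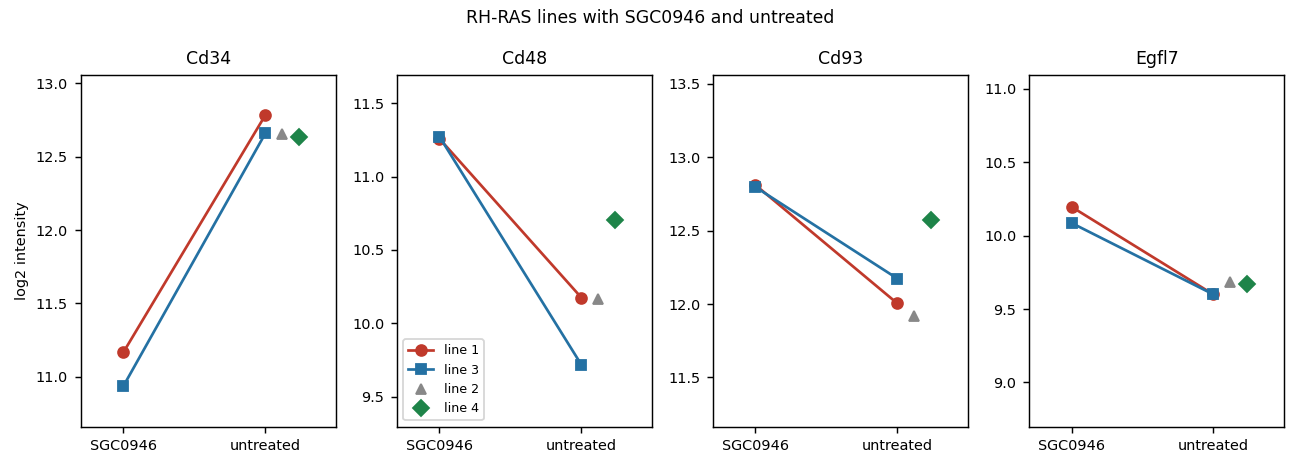
Log2 intensity (y axis, the same span in each panel) of Cd34, Cd48, Cd93 and Egfl7 in RH-RAS lines, with SGC0946 on the left and untreated on the right; lines join the 2 arrays of RH-RAS line 1 and of line 3, and untreated lines 2 and 4 are shown beside them. Cd34 was lower and Cd48, Cd93 and Egfl7 higher on both treated arrays, and untreated line 4 lay towards the treated arrays for Cd48 and Cd93 but not for Cd34 or Egfl7.

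Prom1, which encodes the pentaspan membrane protein prominin-1, was dim on all RH-RAS arrays, at 4.06 and 4.71 in treated lines and 4.45, 4.73, 4.73 and 4.31 in untreated ones. Its difference of −0.20 ± 0.89 says little about a response. Hlf, a PAR-type bZIP factor, was also dim, at 5.13 and 5.48 in treated lines and 5.40, 5.26, 5.20 and 5.53 in untreated ones. Lines 1 and 3 differed in sign for it (−0.27 and 0.28). Hhex, a homeobox repressor, was bright and nearly level on every array of the series, with a range of 0.29. Its change was −0.17 ± 0.11, with a 95% interval from −0.43 to 0.09 (adjusted p = 0.393). Myct1, which encodes a membrane protein, was at −0.07 ± 0.11 (interval −0.32 to 0.18). Its other 3 probe sets were dim on all 10 arrays, between 2.69 and 4.74. Procr was listed at 4.32 and 4.24 in treated lines and 4.39, 4.36, 4.32 and 4.15 in untreated ones, dim on every RH-RAS array.

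In all, limma called 1435 of 11992 genes (12.0%), 6.84% higher and 5.13% lower. Of the 8 tested genes described here 1 was lower and 0 were higher, and 3 were higher at an unadjusted p under 0.05, as 14.6% of all genes were. Groups that did not overlap were common: both treated arrays lay above all 4 untreated ones for 26.6% of genes and below them for 21.4%, against 3 and 2 of these 8. With only the 4 arrays compared the fit called 3747 genes, 2031 higher and 1716 lower, and of the 8 genes it called 3 higher and 1 lower. With blocking on the line the fit called 867 genes, of which 861 were among the 1435. Without treated line 1 or 3 it called 129 and 28 genes, and without untreated line 1 or 3 it called 147 and 124.

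Markers of monocytes and macrophages moved with the treatment and with line 4. Of 11 tested markers 10 rose under SGC0946, among them the mannose receptor gene Mrc1 (5.10 ± 0.69; adjusted p = 0.00647) and the endotoxin co-receptor gene Cd14 (4.998 ± 1.085; adjusted p = 0.0275, or 0.0549 when lines were blocked), with a median of 4.09 against 0.02 over all genes tested. Mrc1 was above the array median on the 2 treated arrays, on no untreated RH-RAS array and on 1 array of the other lines. It passed the filter through the treated arrays, so its rise is built in. The summed intensity of the 11 markers on the linear scale was 42224 to 44547 on treated arrays, 15761 in untreated line 4 and 7792 to 8046 in untreated lines 1 to 3. None of the 11 was dim on treated arrays and 2 to 3 were dim on untreated ones. Cd93 and Cd48 were likewise higher in line 4 than in lines 1 to 3, by 0.54 and 0.69, while Cd34 (−0.06) and Egfl7 (0.04) were not. The part of these cells' genes in the values of Cd48 and Cd93 was not tested. Of 7 tested lymphoid markers 4 fell and 3 did not pass (median −2.41), with Gzma at −5.25 ± 0.68 and Cd3g at −4.19 ± 0.66. Their summed intensity was 1466 to 1611 on treated arrays and 4351 to 5613 on untreated ones, where line 4 had the lowest. Gzma and Cd3g were above the array median on 4 and 3 RH-RAS arrays and in no other line. Their treated means were dim (4.84 and 4.32). They passed the filter through untreated arrays, so their fall is built in. Of 10 granulocyte markers 1 rose, Mmp8 (2.49 ± 0.34), and 9 did not pass, with Mpo at −0.40 ± 0.35 (median 0.13, summed intensity 3245 to 3375 on treated and 3646 to 5816 on untreated arrays).

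Endothelial cells share several of these genes. None of 5 tested endothelial markers passed under SGC0946 (median −0.09), with Erg at −0.68 ± 0.26 and Pecam1 at −0.53 ± 0.22. Of the 12 endothelial markers listed, Cdh5, Tie1, Robo4, Emcn, Sox17, Sox18 and Cldn5 did not pass the filter in the series. Kdr, Pecam1 and Esam were above the array median on all 10 arrays, and Erg and Vwf on fewer. The summed intensity of 12 endothelial markers was 641 to 657 on treated arrays and 700 to 795 on untreated ones. None of 6 megakaryocyte and erythroid markers passed (median −0.04; 506 to 514 and 488 to 515), with Klf1 at −0.18 ± 0.13 and Pf4 at 0.15 ± 0.14. The 1 tested stromal marker, Pdgfrb, was at −0.26 ± 0.44 (180 to 182 and 176 to 219 over 6 markers).

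Other stem and progenitor genes moved beside Cd34 more often down than up. Of 17 tested stem and progenitor regulators 6 fell, 1 rose and 10 did not pass, or 5 and 0 when lines were blocked, with a median of −0.38 against 0.02 over all genes. Mllt3, which encodes a reader of acylated histones, fell by 2.69 ± 0.51 (adjusted p = 0.0177). The homeobox gene Hoxa9 fell by 1.82 ± 0.13 (adjusted p = 0.00156) and its cofactor Meis1 fell by 1.33 ± 0.13 (adjusted p = 0.00353). The bZIP factor gene Nfe2 fell by 1.39 ± 0.22 (adjusted p = 0.0115). In untreated line 4, Mllt3, Nfe2 and Hoxa9 stood at −0.74, −0.72 and −0.42 relative to lines 1 to 3, and Meis1 at 0.02. These genes overlap with lists already examined in these data, so their direction is no independent evidence.

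Of 12 tested surface and signalling genes of stem cells 3 fell, 0 rose and 9 did not pass (median −0.10), or 2 when lines were blocked. At an unadjusted p under 0.05, which 14.6% of all genes reached as higher and 12.2% as lower, the tetraspanin gene Cd9 was higher (0.48 ± 0.15, adjusted p = 0.0941). At that threshold the TNF receptor family gene Cd27 (−2.30 ± 0.78, adjusted p = 0.105) and the receptor kinase gene Flt3 (−0.96 ± 0.33, adjusted p = 0.112) were lower, beside the 3 that fell. Angpt1, a ligand of the receptor kinase TEK, fell by 3.12 ± 0.37 (adjusted p = 0.00497), and the stem cell factor receptor gene Kit fell by 1.98 ± 0.19 (adjusted p = 0.00347). Adgrg1, an adhesion receptor gene, was at −1.95 ± 0.50 (adjusted p = 0.0459, and 0.0719 with the block). Among 17 tested paralogs and binding partners of the 10 genes 2 fell, 1 rose and 14 did not pass (median −0.07). Cd244a, which encodes the receptor for CD48, fell by 2.65 ± 0.49 (adjusted p = 0.0170), with 8.03 as its mean on treated arrays and 10.39 on the 4 untreated ones. F2r, a thrombin receptor gene whose product EPCR-bound activated protein C can cleave, fell by 2.18 ± 0.24 (adjusted p = 0.00381). Cd84, a paralog of Cd48 in the SLAM family, rose by 0.83 ± 0.21 (adjusted p = 0.0454, and 0.0846 with the block). Untreated line 4 differed from lines 1 to 3 in the treated direction for Angpt1 (−0.53), Kit (−0.63), Adgrg1 (−0.57), Cd244a (−0.87) and F2r (−0.79), and not for Cd84 (−0.11).

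Interferon-stimulated genes were listed because interferon induces Ly6a. Of 10 tested 2 rose and 8 did not pass (median 0.78), or 1 when lines were blocked, with the RNA sensor gene Ifih1 at 1.97 ± 0.29 (adjusted p = 0.00860) and Bst2, which tethers budding virus, at 0.83 ± 0.17 (adjusted p = 0.0238, and 0.0518 with the block). Both were also higher in untreated line 4 than in lines 1 to 3, by 0.59 and 0.53.

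**Figure D3:**
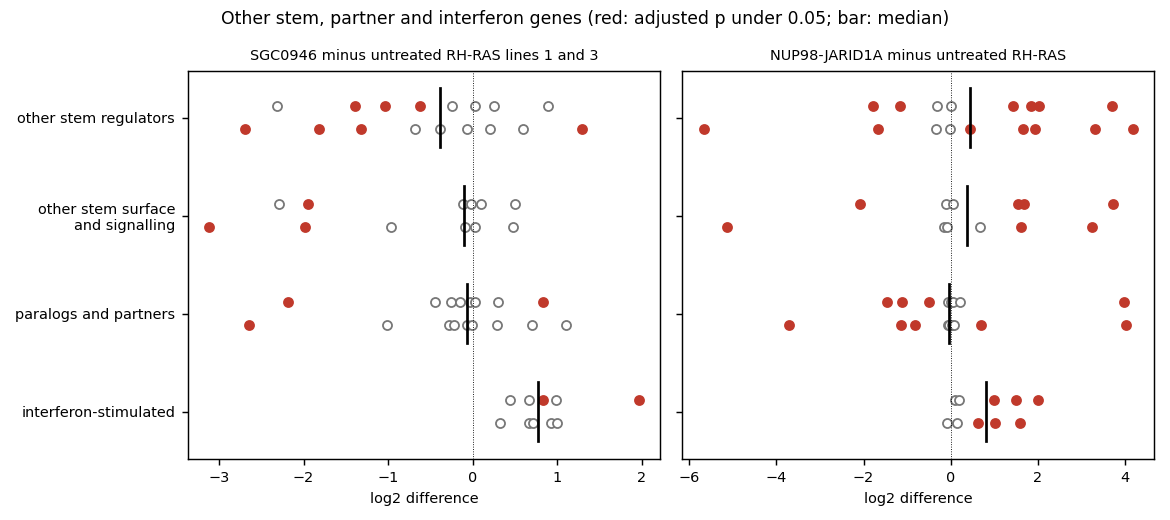
Log2 difference (x axis) of each tested gene in 4 lists (y axis) under SGC0946 and in NUP98-JARID1A lines, each against its untreated RH-RAS arrays; filled red points passed at an adjusted p under 0.05, open points did not, and the bar is the list's median. The medians under SGC0946 were −0.38, −0.10, −0.07 and 0.78 from the top list down.

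The next comparison asks how the genes differ between lines transformed by NUP98-JARID1A and untreated RH-RAS lines. It uses all 4 untreated RH-RAS lines, of which lines 1 and 3 are also the controls of the inhibitor comparison. Prom1 and Hlf were higher in NUP98-JARID1A cells, and Cd34 was not detectably different. Prom1 stood at 8.69, 5.62 and 8.24 in NUP98-JARID1A lines 1 to 3, against 4.45, 4.73, 4.73 and 4.31 in RH-RAS lines 1 to 4. The groups did not overlap, but line 2 was dim and about 3 below the other NUP98-JARID1A lines. The difference was 2.96 ± 0.67 (n = 3 and 4 arrays; limma adjusted p = 0.00833). It was 3.91 without NUP98-JARID1A line 2 and 2.37 without NUP98-JARID1A line 1, and passed in both. Prom1 was tested only through NUP98-JARID1A lines 1 and 3 and MLL-AF9. Its difference is therefore built in, and its passing adds no support. The RH-RAS values were dim, where RMA understates changes.

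Hlf was higher by both probe sets. The representative 1434735_at stood at 6.72, 6.20 and 6.39 in NUP98-JARID1A lines 1 to 3, against 5.40, 5.26, 5.20 and 5.53 in RH-RAS lines 1 to 4, a difference of 1.09 ± 0.14 (adjusted p = 6.9e-04). Its second probe set, 1434736_at, stood at 7.46, 5.55 and 6.78, against 4.91, 5.003, 4.80 and 4.80, a difference of 1.72 ± 0.39 (adjusted p = 0.00759 over all probe sets, of which 52.1% passed). All NUP98-JARID1A arrays lay above all RH-RAS arrays in both, and line 2 was lowest in both. The second probe set was dim on all RH-RAS arrays and in NUP98-JARID1A line 2. It was tested through NUP98-JARID1A lines 1 and 3 and MLL-AF9, so its difference is built in as well. Procr was not tested. It stood at 4.90, 4.51 and 6.46 in NUP98-JARID1A lines 1 to 3 and between 4.15 and 4.39 in RH-RAS lines, and only NUP98-JARID1A line 3 was above the array median.

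Cd34 stood at 12.50, 12.999 and 12.71 in NUP98-JARID1A lines 1 to 3, against 12.63 to 12.78 in RH-RAS lines. The RH-RAS values fell inside the NUP98-JARID1A range. The difference was 0.05 ± 0.12, with a 95% interval from −0.23 to 0.34 (adjusted p = 0.749). Hhex was likewise at −0.04 ± 0.09 (interval −0.26 to 0.18), or 0.00 with each array's median subtracted. Myct1 was lower, at 6.23, 6.33 and 6.34 in NUP98-JARID1A lines and 6.56, 6.53, 6.55 and 6.61 in RH-RAS lines. The groups did not overlap and the difference was small, at −0.26 ± 0.07 (adjusted p = 0.0167). Its other probe sets were dim everywhere and differed in sign.

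Cd48 and Cd93 passed only narrowly. Cd48 stood at 12.13, 12.22 and 10.43 in NUP98-JARID1A lines 1 to 3, against 10.18, 10.16, 9.72 and 10.70 in RH-RAS lines 1 to 4. Line 3 lay inside the RH-RAS range, far below the other NUP98-JARID1A lines. The difference was 1.41 ± 0.45 (adjusted p = 0.0336). It missed the threshold without NUP98-JARID1A line 1 or 2, or without RH-RAS line 1, 2 or 3 (adjusted p from 0.0706 to 0.103).

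The brightest probe set of Cd93 stood at 12.55, 12.84 and 13.05 in NUP98-JARID1A lines 1 to 3, against 12.00, 11.92, 12.17 and 12.57 in RH-RAS lines 1 to 4. Only RH-RAS line 4 reached the NUP98-JARID1A range. The difference was 0.65 ± 0.18 (adjusted p = 0.0212), and it missed the threshold without NUP98-JARID1A line 2 or 3 or RH-RAS line 1, 2 or 3 (adjusted p from 0.0503 to 0.0704). The probe sets disagreed. The next brightest, 1419589_at, was higher by 0.93 ± 0.22 (adjusted p = 0.00883), and 1449521_at was at 0.35 ± 0.22. The 2 others were at −0.52 ± 0.32 (1441907_s_at) and −0.41 ± 0.25 (1441908_x_at) and did not pass. With the mean of all 5 in place of the brightest, the difference was 0.20 (adjusted p = 0.484).

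Egfl7 was at −0.22 ± 0.17 (adjusted p = 0.320), with 9.09, 9.86 and 9.30 in NUP98-JARID1A lines 1 to 3 and 9.60 to 9.68 in RH-RAS lines. Line 2 was above and lines 1 and 3 below all RH-RAS lines, and without NUP98-JARID1A line 2 the difference was −0.44 (adjusted p = 0.00863). Its probe set 1421335_a_at, dim on all RH-RAS arrays, went the other way, at 0.50 ± 0.12 (adjusted p = 0.0120). It was tested only through the NUP98-JARID1A and MLL-AF9 arrays, so its higher level is built in and decides no direction. The probe set 1451427_a_at was at −0.13 ± 0.14 and 1435823_x_at at 0.13 ± 0.10, so no direction held over the brighter probe sets either.

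**Figure D4:**
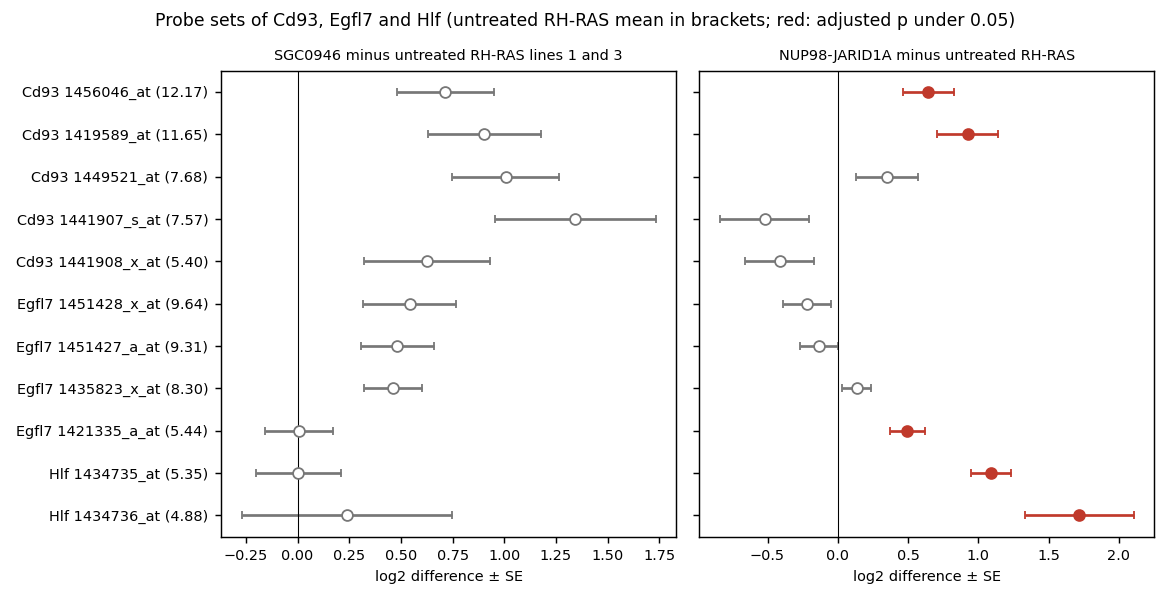
Log2 difference with its SE (x axis) for each tested probe set of Cd93, Egfl7 and Hlf (y axis), with the untreated RH-RAS mean in brackets; filled red points passed at an adjusted p under 0.05. Under SGC0946 all 5 Cd93 probe sets were positive and none passed; in NUP98-JARID1A lines the 2 brightest passed as higher and the 2 dimmest were negative.

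The background of this comparison is high. Limma called 6112 of 11992 genes (51.0%), 32.5% higher and 18.5% lower, and 4 of the 8 genes were higher and 1 lower. Prom1 and Hlf were tested because of these lines, so the count says nothing about the genes as a group. NUP98-JARID1A arrays lay above all RH-RAS arrays for 34.8% of genes and below all for 20.0%, against 2 and 1 of the 8.

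Of 10 granulocyte markers 8 were dim on every RH-RAS array and were tested because of the other lines, so their being higher in NUP98-JARID1A lines is built in. The 10 tested had a median difference of 5.30, with S100a9 at 9.67 ± 0.38 and S100a8 at 9.23 ± 0.34. Their summed intensity was 30769 to 94475 in NUP98-JARID1A and 3646 to 5816 in RH-RAS lines. Of 11 monocyte markers 6 were higher, 2 lower and 3 did not pass (median 1.86, summed 38968 to 58830 and 7792 to 15761), with F13a1 at 6.55 ± 0.45 and Lyz2 at 4.76 ± 0.43. Of 7 lymphoid markers 5 were lower and 2 did not pass (median −3.67, summed 304 to 562 and 4351 to 5613), with Rag1 at −7.00 ± 0.24 and Gzma at −5.26 ± 0.58. Rag1, Gzma, Cd3g and Dntt were above the array median on RH-RAS arrays only. They passed the filter through those, so their lower levels in NUP98-JARID1A lines are built in. Of 5 tested endothelial markers 3 were higher and 2 did not pass (median 0.95, summed 2251 to 2522 and 700 to 795 over 12), with the ETS factor gene Erg at 4.18 ± 0.17 and Vwf at 3.72 ± 0.53. Vwf, like Mecom, Thbd and Pf4, was dim on all RH-RAS arrays and passed the filter only through the other lines, so their higher levels there are built in too. The untested endothelial genes named above were dim here too. Of 6 megakaryocyte and erythroid markers 2 were higher, 1 was lower and 3 did not pass (median 0.03, summed 543 to 638 and 488 to 515), with Pf4 at 1.81 ± 0.10 and Epor at −0.37 ± 0.08. The stromal marker Pdgfrb was at 0.86 ± 0.34 and did not pass (summed 193 to 299 and 176 to 219). The part of any of these cell programs in the values of Prom1, Hlf, Cd48 and Cd93 was not tested.

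Among 17 other stem and progenitor regulators 9 were higher, 4 lower and 4 did not pass (median 0.44, against 0.10 over all genes). Erg, named above, was higher by 4.18 ± 0.17 (adjusted p = 6.6e-06) and Nfe2 by 3.70 ± 0.20 (adjusted p = 2.0e-05). Mecom, a zinc finger gene of stem cells and leukemia, was higher by 3.32 ± 0.68 (adjusted p = 0.00552), and was dim in RH-RAS lines (mean 4.36). Mllt3 was at −5.67 ± 0.40 (adjusted p = 6.0e-05). It was dim in NUP98-JARID1A lines (mean 4.51) and passed the filter through RH-RAS arrays, so its lower level is built in. Of 12 surface and signalling genes 5 were higher, 2 lower and 5 did not pass (median 0.36). Cd27 was at −5.14 ± 0.61 (adjusted p = 4.5e-04) and Flt3 at −2.07 ± 0.25 (adjusted p = 5.5e-04). The NUP98-JARID1A mean of Cd27 was dim (5.13). Vwf, for von Willebrand factor, was at 3.72 ± 0.53 (adjusted p = 0.00108) and the mucin gene Muc13 at 3.24 ± 0.19 (adjusted p = 3.0e-05).

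Of 17 paralogs and partners 3 were higher, 6 lower and 8 did not pass (median −0.03). Thbd, for thrombomodulin, which works with EPCR to activate protein C, was higher by 3.97 ± 0.17 (adjusted p = 7.8e-06) and Cd84 by 4.03 ± 0.18 (adjusted p = 8.2e-06). F2r was at −3.71 ± 0.24 (adjusted p = 4.1e-05) and Cd244a at −1.47 ± 0.41 (adjusted p = 0.0192). The NUP98-JARID1A mean of F2r was dim (5.66). Of 10 interferon-stimulated genes 6 were higher, against 4 that missed the threshold (median 0.81), with Ifit2 at 2.00 ± 0.27, Ifih1 at 1.59 ± 0.25, Bst2 at 1.51 ± 0.16 and Ifit3 at 1.03 ± 0.25.

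**Figure D5:**
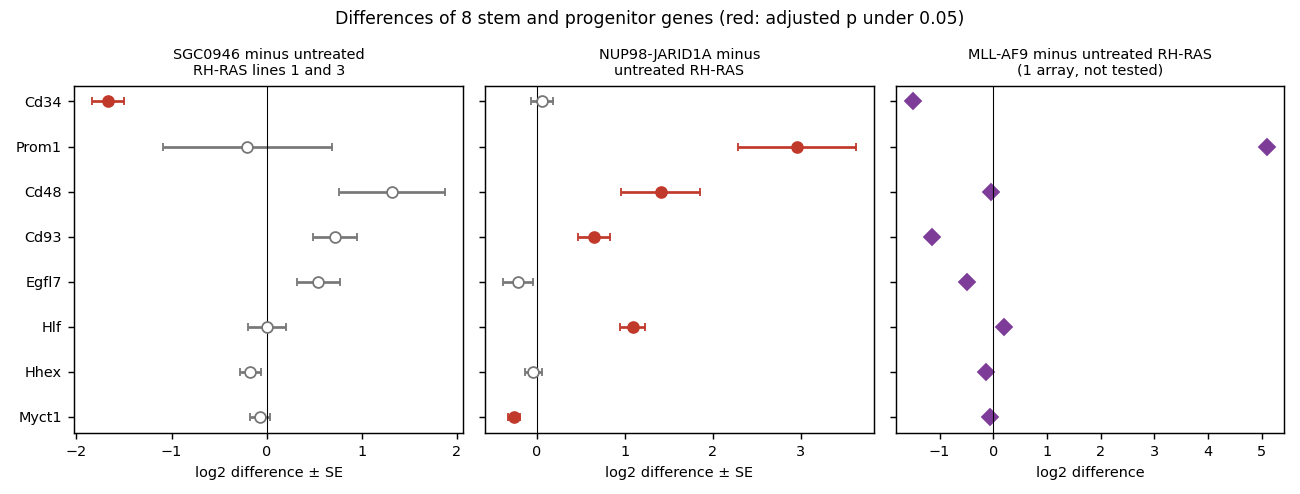
Log2 differences (x axis, own range in each panel) of the 8 tested genes (y axis) under SGC0946, in NUP98-JARID1A lines and in the MLL-AF9 line, each against untreated RH-RAS; bars are the SE, and filled red points passed at an adjusted p under 0.05. Cd34 passed under SGC0946, Prom1, Cd48, Cd93, Hlf and Myct1 passed in NUP98-JARID1A lines, and MLL-AF9 has 1 array and no test.

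The MLL-AF9 line is 1 array, so its values are given without a test. Prom1 was at 9.65 there, its highest level of the 10 arrays, which is 5.10 above the RH-RAS mean of 4.56 and above all 3 NUP98-JARID1A lines. It was the only 1 of the 8 genes at least 2 apart from the RH-RAS mean and outside the RH-RAS range, as 522 of 11992 genes (4.35%) were, 2.62% higher and 1.73% lower. Prom1 was tested only through MLL-AF9 and NUP98-JARID1A arrays, so this difference is partly built in. Cd34 stood at 11.20, which is −1.49 from the RH-RAS mean and below all untreated RH-RAS and NUP98-JARID1A arrays. That value lay just above the 11.17 and 10.94 of the inhibitor-treated RH-RAS arrays.

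Cd93 was lowest in MLL-AF9, at 11.02 by its brightest probe set, −1.14 from the RH-RAS mean and −1.79 from the NUP98-JARID1A mean. For 4 of its 5 probe sets MLL-AF9 lay below all RH-RAS arrays. Egfl7 stood at 9.16, −0.48 from the RH-RAS mean, and 3 of its 4 probe sets were below all RH-RAS arrays. Its probe set 1421335_a_at, dim on all RH-RAS arrays, lay above them at 5.83. Cd48 at 10.15 lay inside the RH-RAS range and below all NUP98-JARID1A lines. Hlf stood at 5.56 and 5.88 by its 2 probe sets, both above all untreated RH-RAS lines and the first below all NUP98-JARID1A lines. Procr was at 5.07, Hhex at 11.06 and Myct1 at 6.50.

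Being above or below all 4 RH-RAS arrays was frequent for a single array. MLL-AF9 was above for 44.6% of genes and below for 31.0%, against 2 and 5 of the 8. Among the other stem and progenitor regulators, MLL-AF9 was at least 2 higher for 4 of 17 and lower for 2 of 17 (median difference 0.15, against 0.07 over all genes). Mecom was 5.79 and Gata2, a zinc finger regulator of stem cells, 3.29 above the RH-RAS mean. Among the surface and signalling genes 0 of 12 were higher and 1 lower by that rule, Flt3 at −2.27. Of the 17 paralogs and partners 2 were higher and 2 lower, and of the 10 interferon-stimulated genes 2 were higher. Granulocyte markers had a summed intensity of 65218 in MLL-AF9, monocyte markers 26723 and lymphoid markers 396.

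Across groups the levels of each gene fell in different orders. Cd34 was similar in NUP98-JARID1A (mean 12.74 ± 0.25, SD, n = 3) and untreated RH-RAS lines (12.68 ± 0.07, n = 4), with MLL-AF9 (11.20) and treated RH-RAS lines (11.05 ± 0.16, n = 2) below. Those neighbours did not differ beyond their spread. Prom1 was highest in MLL-AF9 (9.65), then in NUP98-JARID1A lines (7.51 ± 1.66), and lowest in untreated (4.56 ± 0.21) and treated RH-RAS lines (4.39 ± 0.46), which overlapped. Cd48 overlapped between NUP98-JARID1A (11.60 ± 1.01) and treated RH-RAS lines (11.27 ± 0.01), and between untreated RH-RAS lines (10.19 ± 0.40) and MLL-AF9. By its brightest probe set Cd93 overlapped between NUP98-JARID1A (12.81 ± 0.25) and treated RH-RAS lines (12.80 ± 0.01), with untreated RH-RAS lines (12.17 ± 0.29) and then MLL-AF9 below. This order did not hold over its probe sets. For 3 of the 5 both treated RH-RAS arrays lay above all NUP98-JARID1A lines, and 2 of these had the NUP98-JARID1A mean below the untreated RH-RAS mean (7.05 and 7.57 for 1441907_s_at, 4.99 and 5.40 for 1441908_x_at). Egfl7 was highest in treated RH-RAS lines (10.14 ± 0.08), then untreated RH-RAS (9.64 ± 0.05) and NUP98-JARID1A lines (9.42 ± 0.40), which overlapped. By its probe set 1434735_at Hlf was highest in NUP98-JARID1A lines (6.44 ± 0.26), with MLL-AF9 (5.56), untreated RH-RAS (5.35 ± 0.15) and treated RH-RAS lines (5.31 ± 0.25) close together below. By 1434736_at MLL-AF9 (5.88) overlapped the NUP98-JARID1A lines and stood 0.998 above the untreated RH-RAS mean of 4.88. Hhex spanned 0.29 and Myct1 0.38 over all 10 arrays.

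Genes with the most similar pattern over the 10 arrays were found by Pearson r of log2 values among 11992 genes. These are descriptions over arrays that share lines and fall into groups. Genes picked this way share the group differences of the gene they resemble, so those differences and their p-values are no separate evidence. Cd34 was closest to the zinc finger genes Rbak (r = 0.970) and Zbtb26 (0.963) and to Tespa1 (0.964). Tespa1 and Zbtb26 were at −1.59 and −1.23 under SGC0946 (adjusted p = 0.0124 and 0.00326). Prom1 was closest to Plpp5 (0.991), Ppt2 (0.989) and Celsr3 (0.987), which differed by 1.90, 1.66 and 2.06 between MLL-AF9 and the RH-RAS mean. Hlf was closest to Btrc (0.984), 1110019D14Rik (0.975) and Iffo1 (0.974). Cd93 was closest to Cd28 (0.970), Epsti1 (0.967) and Chmp3 (0.966), Cd48 to Eif3l (0.951), Slc16a10 (0.950) and Tax1bp3 (0.934), and Egfl7 to Tbc1d14 (0.974), Muc1 (0.970) and Usf1 (0.958). For Hhex (Vipr1 at 0.913, Neurl1a at 0.861 and Zfp592 at 0.855) and Myct1 (Krtap26-1 at 0.935, Ppwd1 at 0.934 and Eif1a at 0.933) the levels spanned only 0.29 and 0.38.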

How the data were processed

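Total RNA of 10 samples was hybridised to 1 Affymetrix mouse expression array each. Each deposited value is a log2 intensity from RMA, per the submitters' processing notes. RMA corrects background, normalises quantiles and summarises probes. It gives no detection calls and understates changes of dim probe sets. No version of it is given in the sources used here. Nothing further was normalised. Precision is limited by the small number of arrays.

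Of 45101 probe sets, 34958 had 1 gene symbol in the annotation, 932 had several and 9211 were not listed. Symbols were updated through Entrez identifiers (99.4% matched) to RefSeq of GRCm38.p6. Fits used limma 3.58.1 in R 4.3.3 and were tested on simulated data, with Benjamini-Hochberg adjustment over 11992 genes and a threshold of 0.05. SGC0946 was fitted on all 10 arrays with 5 coefficients (treated lines 1 and 3, untreated lines 1 and 3, untreated lines 2 and 4, MLL-AF9, NUP98-JARID1A), and NUP98-JARID1A on the 8 arrays without inhibitor. Single probe sets were adjusted over 21679. Treated and untreated arrays of lines 1 and 3 pair by cell line, per the labels, and same-line deviations correlated at 0.29 across genes.

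The genes, lists and tests were chosen with earlier results of these data known. The 10 genes were always named. From each pathway list the 4 called genes with the largest change were named, or the 2 largest where none passed, and from each marker list the 2 largest. Gata2, Cd9 and further values of Flt3 and Cd27 were given after their values were seen.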

Additional observations from a re-analysis of the deposited data

Results flagged for a closer look

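Among 20 groups of the 4 untreated RH-RAS arrays, 1 per probe set, 2 values stood far from the other 3. Chance alone marks about 1 in 20 such groups, so 2 flags are near that share. The Cd93 probe set 1449521_at in untreated line 4 fell just short, with a gap of 0.8289 of the range. Both flagged values belong to untreated RH-RAS line 1. For Cd34 it stood at 12.78, against 12.63 to 12.66 in the other untreated lines, a gap of 0.84 of the group's range. For the dim Egfl7 probe set 1421335_a_at it stood at 5.67, against 5.35 to 5.38, a gap of 0.93 of the range.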

How the results depend on the processing

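Of 242 values of the 8 tested genes under alternative settings, 208 kept their direction and side of the threshold, 17 lost the call, 5 gained it and 12 changed sign. These include settings that could not change a direction. For NUP98-JARID1A, a fit of only the arrays compared gave the main fit again. Testing every probe set or dropping the filter left each difference as it was. For SGC0946, 1435 genes were called, against 3747 with only the arrays compared, 867 with the line as a replicate block and 28 to 1483 when 1 array was left out. Of the 8 genes 0 were called higher, against 3 with only the arrays compared and 0 to 1 when 1 array was left out, and 1 was called lower, or 0 to 1. Dim or level genes changed sign when 1 array was left out: Prom1 ranged from −0.53 to 0.12, Myct1 from −0.18 to 0.039 and Hlf from −0.17 to 0.18. For NUP98-JARID1A, 6112 of 11992 genes were called (51.0%), and 11303 of 21679 probe sets when each was tested (52.1%). Of the 8 genes 4 were higher, against 2 of 6 with a filter on 4 arrays, which leaves Prom1 and Hlf untested, and 2 to 4 when 1 array was left out. Of the 8 genes 1 was lower, against 0 of 7 with the mean of a gene's probe sets, which leaves Myct1 untested, 0 with the line number as a replicate block (Myct1 −0.24, adjusted p = 0.0981) and 1 to 2 when 1 array was left out. The line block changed no call of the 8 genes under SGC0946, while NUP98-JARID1A and RH-RAS lines share only a number (deviations correlated at −0.05, −0.02 and 0.07). Signs changed for Egfl7 (0.069, mean of probe sets) and Hhex (0.0024, array medians subtracted). When 1 array was left out, Hhex ranged from −0.11 to 0.0071 and Cd34 from −0.079 to 0.17. Controls chosen after seeing the data were also tried, where a lone control array is assumed to vary like the other groups. With untreated line 4 alone, SGC0946 called 318 genes (Prom1 0.081, Hlf −0.22) and NUP98-JARID1A 3591, with 1 of the 8 higher, 0 lower and Hhex at 0.028. With all 4 untreated lines Hlf was at −0.041 under SGC0946. For MLL-AF9 a difference of at least 1 took in 1558 genes in place of 522, and 3 of the 8 in place of 1. For the rest the cause was not tested, except that fewer arrays enter where 1 is left out or serves alone. Dim probe sets limit Prom1, Hlf, Procr and the lesser Myct1 and Egfl7 probe sets.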
